A study of Homo sapiens with 24 samples.

Results

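The comparison described here sets untreated BXPC3 against untreated PSN1, both established human pancreatic adenocarcinoma cell lines, across all measured genes. Its members are the 8 libraries that the labels give as BXPC3 vehicle (4) and PSN1 vehicle (4), of 24 libraries in the series, and 18141 of 60366 table entries had enough counts to be tested. The series as a whole tested AM-9747, an inhibitor of the arginine methyltransferase PRMT5 that cooperates with methylthioadenosine, in BXPC3, PSN1 and the line MIAPACA2. All 8 libraries are poly(A) RNA of cells that received DMSO and were taken at day 6, after growth in medium with 10% serum. The labels give each line the genotype WT, and the series text describes all the lines as deleted for MTAP, the enzyme that clears methylthioadenosine, so the loss of MTAP is shared by both groups. Each group is 1 cell line, so that line identity, culture history and any difference in growth between the cultures cannot be told apart. The labels do not say that the 4 libraries of a group came from separate cultures, and p-values then measure only the spread between these samples, which may be technical.

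Pancreatic ductal adenocarcinoma cells range from epithelial cells, which are held together by E-cadherin and tight junctions, to mesenchymal cells, in which repressors such as ZEB1 and ZEB2 shut down the epithelial genes. Tumours are also sorted into a classical class with glandular and mucin genes and a basal-like class with squamous genes such as TP63 and its keratins. PSN1 is known as a line with amplified MYC.

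The PSN1 libraries were shallower and more variable than the BXPC3 libraries. BXPC3 libraries held 37.1 to 45.6 M (1e6) counts with 22560 to 25149 genes detected, and PSN1 libraries held 22.4 to 38.4 M with 16646 to 24738 genes. Transcripts of the mitochondrial genome took 6.60 to 8.98% of the counts in BXPC3 and 17.4 to 43.8% in PSN1. Variation between libraries of a line (edgeR's biological coefficient) came to 27.4% for BXPC3 and 65.4% for PSN1. BXPC3 replicate 4 correlated less with its group (mean r 0.975 across genes, against 0.988 to 0.990 for the others), and PSN1 replicate 3 had the lowest mean r of all 8 (0.905). Levels are given as CPM, counts scaled to library size, as mean ± SD of 4 libraries. Differences are log2 of BXPC3 over PSN1 ± SE. P-values come from edgeR's quasi-likelihood test and were adjusted by the Benjamini-Hochberg method over all genes tested. A gene is called higher in a line where adjusted p was below 0.05.

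The labelled cell type was checked against marker genes. All 8 ductal and epithelial markers reached 1 CPM in BXPC3 and 7 of 8 did so in PSN1, where the exception was CDH1, and their summed level was 7443 to 12890 CPM in BXPC3 and 1786 to 2337 CPM in PSN1. The summed level of 8 fibroblast and stellate markers was 27.8 to 32.8 CPM in BXPC3 and 47.7 to 88.5 CPM in PSN1, that of 6 leukocyte markers 35.8 to 40.9 and 20.1 to 57.3 CPM, and that of 5 endothelial markers 17.1 to 23.2 and 43.2 to 57.3 CPM. CD3E, which defines T cells, was at 0 in each PSN1 library, but 3 of the 6 leukocyte markers reached 1 CPM in each line. Of the 8 fibroblast and stellate markers, 4 reached 1 CPM in BXPC3 and 5 in PSN1. Of the 5 endothelial markers, 4 did so in BXPC3 and 2 in PSN1. Among 9 acinar markers only PRSS1, the cationic trypsinogen gene, reached 1 CPM in PSN1, where it stood at 93.1 ± 11.5 CPM against 1.07 ± 0.576 CPM in BXPC3 (log2 -6.53 ± 0.38, adjusted p = 1.38e-06), while CELA3A, CELA3B, PNLIP and CTRB2 were at 0 in each PSN1 library. In bulk RNA, fewer cells of a type and less RNA per cell cannot be told apart. Reads of PRSS1 may include some from its near-identical trypsinogen copies.

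Of the 18141 genes tested, 10710 (59.0%) were called: 5475 (30.2%) were higher in BXPC3 and 5235 (28.9%) were higher in PSN1. The median log2 difference of all genes was 0.05, and 4659 of the calls for BXPC3 and 4651 of those for PSN1 were at least 2-fold. Without BXPC3 replicate 4 and PSN1 replicate 3, 6071 genes were higher in BXPC3 and 6117 in PSN1. These shares are the background for every gene list below. The groups did not overlap for 10405 of the 18141 genes, which is the background for each statement on overlap. In 624 tested genes 1 line had 0 counts. Such genes passed the count filter through the other line and could only be called higher there. A second fit of the same line difference used the 8 libraries of BXPC3 and PSN1 treated with AM-9747 (100 nM in both lines), which share no library with the vehicle fit. Whether the line difference changed with treatment was not tested for any gene or list. In the treated fit 5496 of 19019 genes (28.9%) were called higher in BXPC3 and 5628 (29.6%) higher in PSN1. Both fits called 7946 genes, of which 7873 had the same sign; these were 73.5% of the vehicle calls and 70.8% of the treated calls. The direction of calls differed by gene class. Among 14002 protein-coding genes, 5074 were higher in BXPC3 and 3486 in PSN1 (median log2 0.35), whereas among 2753 long non-coding genes 248 were higher in BXPC3 and 1209 in PSN1 (median log2 -1.45). In the treated libraries 361 long non-coding genes were higher in BXPC3 and 801 in PSN1. The share of mitochondrial transcripts moved with the same groups, and its part in the non-coding difference was not tested. Without scaling beyond library totals the median log2 of all genes was 0.33 in place of 0.05 and the log2 of a gene moved by a median of 0.29 towards BXPC3, so differences of that size or less are open to the choice of scaling.

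**Figure D1:**
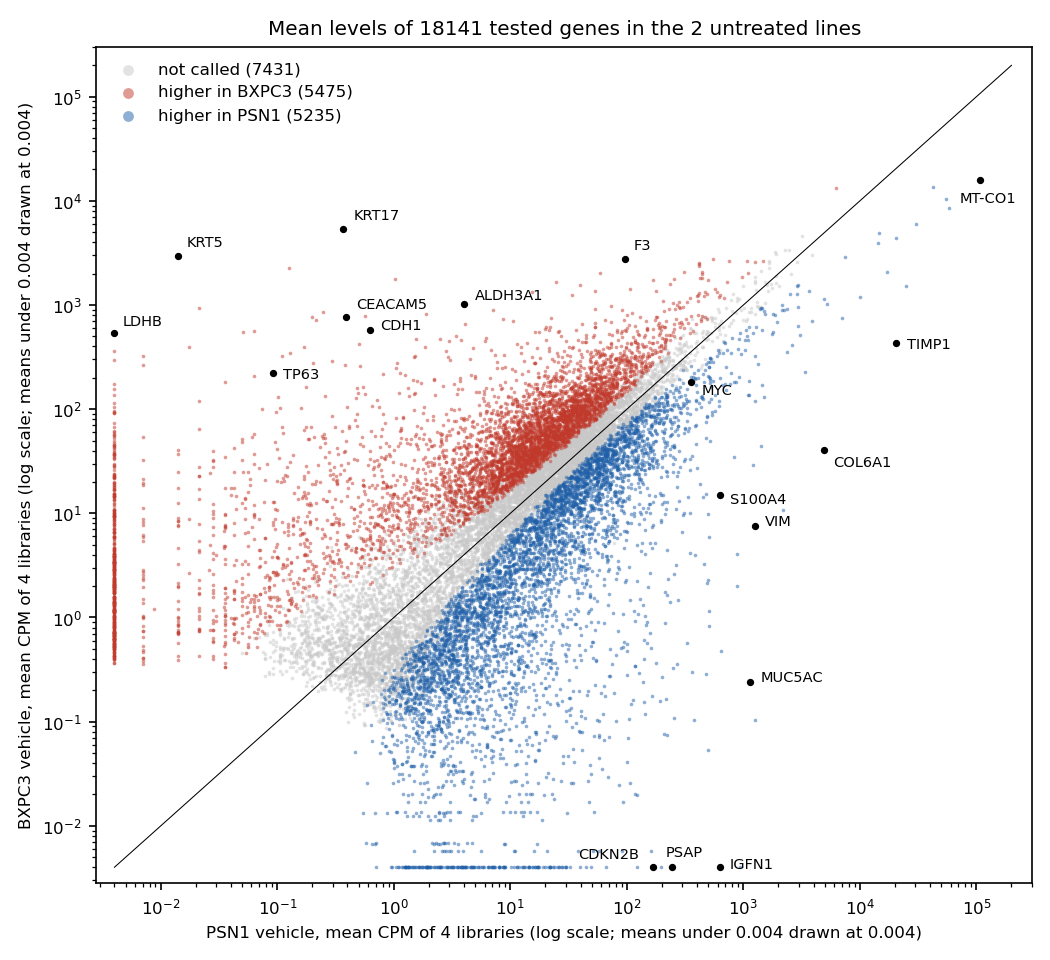
Mean CPM of each tested gene in PSN1 vehicle (x axis, log scale) and BXPC3 vehicle (y axis, log scale), 4 libraries each; red points were called higher in BXPC3 (5475), blue points higher in PSN1 (5235), grey points were not called (7431), and black points are named genes. KRT5, KRT17 and LDHB lie at the upper left with almost no reads in PSN1, and PSAP, CDKN2B and IGFN1 lie at the bottom with 0 counts in BXPC3.

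Genes of epithelial adhesion were almost all higher in BXPC3. CDH1, which encodes E-cadherin (ENSG00000039068, chromosome 16, 68737225 to 68835548, plus strand, GRCh38), stood at 664, 647, 579.6 and 433 CPM in the BXPC3 libraries and at 0.4798, 1.81, 0 and 0.2104 CPM in the PSN1 libraries. Every BXPC3 library was far above every PSN1 library, and PSN1 replicate 3 had no counts (log2 9.77 ± 0.89, adjusted p = 1.66e-05). Of 42 tested genes of junctions and epithelial polarity, 39 were higher in BXPC3 and 0 in PSN1. Their median log2 was 6.17 (5.89 with genes at 0 in a line set to their bound) against 0.05 for all genes. A line was at 0 for 5 of the 42, which passed the count filter only through the other line. In the treated libraries all 42 were higher in BXPC3. RAB25, a small GTPase of apical recycling, stood at 82.5, 78.98, 79.96 and 128 CPM in the BXPC3 libraries and at 0 in each PSN1 library, which is at least 739.7-fold higher when 3 counts are allowed in each PSN1 library. The splicing regulator ESRP1 (158 ± 35.97 CPM in BXPC3) and the transcription factor GRHL2 (106 ± 16.7 CPM), both of which maintain epithelial identity, were also at 0 in each PSN1 library, at least 1265-fold and at least 846-fold higher in BXPC3. PRSS8, a membrane serine protease, stood at 183 ± 27.1 CPM in BXPC3 and 0.0353 ± 0.0706 CPM in PSN1 (log2 11.74 ± 0.62, adjusted p = 7.88e-07). SPINT1, which inhibits such proteases, stood at 508, 468, 471 and 561 CPM in the BXPC3 libraries and at 6.27, 2.32, 1.42 and 3.54 CPM in the PSN1 libraries (log2 7.11 ± 0.46, adjusted p = 2.25e-06). DSC3, a desmosomal cadherin, stood at 165 ± 38.5 CPM in BXPC3 and 0.546 ± 0.255 CPM in PSN1 (log2 8.20 ± 0.42, adjusted p = 7.43e-07), and BXPC3 replicate 4 had the lowest of its BXPC3 values. CLDN3, CLDN23 and GRHL3 did not pass the test.

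Promoters of 3 junction genes are shown because both ZEB proteins, described below, bind the E-box CAGGTG. Of 43 genes of the list, 25 are in that table, and RAB25, CRB3 and CDS1 were the first 3 that could be shown. CRB3, a polarity protein, stood at 10.1, 9.13, 7.15 and 6.99 CPM in the BXPC3 libraries and at 0 in each PSN1 library, and CDS1, a phospholipid enzyme of epithelial cells, at 40.4 ± 7.45 CPM in BXPC3 and 0.0141 ± 0.0282 CPM in PSN1 (log2 10.72 ± 0.58, adjusted p = 8.89e-07). Each window runs from 250 bases before to 50 bases after the RefSeq start on the strand of the gene, in build GRCh38.p14, and capitals mark CAGGTG or its reverse complement CACCTG.
RAB25 (chr1:156060910-156061209, plus strand): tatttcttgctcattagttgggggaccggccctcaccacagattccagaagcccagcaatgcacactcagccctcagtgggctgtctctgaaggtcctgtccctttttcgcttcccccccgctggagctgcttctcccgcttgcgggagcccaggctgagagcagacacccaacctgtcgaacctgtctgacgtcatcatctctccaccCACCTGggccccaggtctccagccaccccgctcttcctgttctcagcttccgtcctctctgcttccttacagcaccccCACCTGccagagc
CRB3 (chr19:6464021-6464320, plus strand): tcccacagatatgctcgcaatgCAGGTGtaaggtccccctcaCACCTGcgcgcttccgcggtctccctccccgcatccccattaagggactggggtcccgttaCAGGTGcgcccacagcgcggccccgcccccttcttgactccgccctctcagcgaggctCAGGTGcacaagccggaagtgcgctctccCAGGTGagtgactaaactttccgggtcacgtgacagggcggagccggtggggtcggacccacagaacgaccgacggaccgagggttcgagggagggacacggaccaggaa
CDS1 (chr4:84582877-84583176, plus strand): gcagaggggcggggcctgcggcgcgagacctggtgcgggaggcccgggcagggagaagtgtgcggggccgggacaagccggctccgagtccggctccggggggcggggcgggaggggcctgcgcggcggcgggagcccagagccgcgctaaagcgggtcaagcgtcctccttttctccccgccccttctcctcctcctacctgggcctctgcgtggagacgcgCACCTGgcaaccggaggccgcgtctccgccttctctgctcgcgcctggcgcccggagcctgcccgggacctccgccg
RAB25 holds 2 matches, CRB3 holds 5 and CDS1 holds 1. Of 35116 promoter windows of the same length in the table, 20.6% hold at least 1 match on either strand, 3.49% at least 2 and 0.094% at least 5. The 25 list members have 33 windows, of which 16 (48.5%) hold at least 1 match, 9 at least 2 and 2 at least 5; these counts are a description without a test. A match is a description of the letters and not evidence of binding, which was not measured.

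Keratins were mostly higher in BXPC3. Of 17 tested keratins, 14 were higher in BXPC3 and 1, KRT81, was higher in PSN1, with a median log2 of 4.02 (3.61 with bounds). Without PSN1 replicate 3, with DESeq2 or RLE size factors, or in a fit over all 6 groups, 2 keratins were higher in PSN1. The basal keratin KRT5 (ENSG00000186081, chromosome 12, 52514575 to 52520687, minus strand) stood at 2867, 2603, 2802 and 3639 CPM in the BXPC3 libraries and at 0.0565, 0, 0 and 0 CPM in the PSN1 libraries. A total of 2 reads in PSN1 replicate 1 was all that PSN1 gave for it. KRT17, another basal and stress keratin, stood at 4702, 4309, 4584 and 8077 CPM in the BXPC3 libraries and at 0.198, 0.0927, 0.964 and 0.2104 CPM in the PSN1 libraries; the groups did not overlap, and BXPC3 replicate 4 was the highest library. KRT6A and KRT13 are keratins of stratified epithelium. KRT6A stood at 942 ± 40.7 CPM in BXPC3 and 0.0212 ± 0.0423 CPM in PSN1, and KRT13 at 2243 ± 428 CPM in BXPC3 and 0.125 ± 0.108 CPM in PSN1. Simple-epithelial keratins had smaller fitted differences. KRT8 stood at 2508 ± 721 CPM in BXPC3 and 419 ± 55.3 CPM in PSN1 (log2 2.48 ± 0.25, adjusted p = 2.89e-05). KRT7 stood at 2093 ± 686 CPM in BXPC3 and 311 ± 54.8 CPM in PSN1 (log2 2.66 ± 0.26, adjusted p = 2.72e-05). KRT19 stood at 1726 ± 629 CPM in BXPC3 and 168 ± 14.3 CPM in PSN1 (log2 3.26 ± 0.27, adjusted p = 9.68e-06). For KRT18 the log2 difference was 0.85 with adjusted p 0.0206, and edgeR's adjusted p was 0.0534 without PSN1 replicate 4. It was 0.118 (log2 0.559) with edgeR when genes had to average at least 5 CPM. EPCAM, an epithelial surface protein, was at 115 ± 14.97 CPM in BXPC3 and 9.06 ± 4.49 CPM in PSN1 (log2 3.59 ± 0.32, adjusted p = 1.64e-05). MUC1, the membrane mucin of ducts, stood at 125 ± 14.6 CPM in BXPC3 and 15.9 ± 7.56 CPM in PSN1 (log2 2.87 ± 0.38, adjusted p = 1.80e-04). Reads of KRT6A and KRT17 may include some from close paralogs and pseudogenes, which the deposited counts do not separate.

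**Figure D2:**
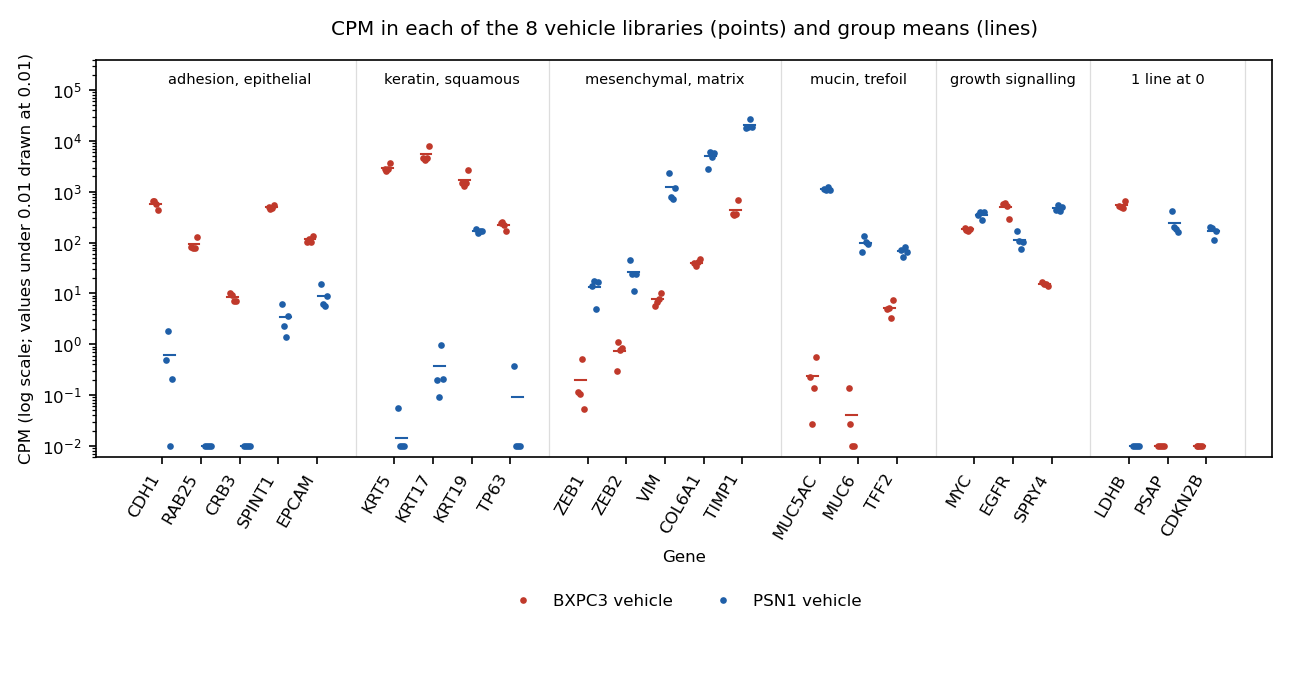
CPM (y axis, log scale, values under 0.01 drawn at 0.01) of 23 genes (x axis) in each BXPC3 vehicle library (red points) and each PSN1 vehicle library (blue points); lines are group means. Red and blue points are separate for every gene shown, as the groups were for 10405 of all 18141 tested genes.

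Genes of the basal-like subtype were mostly higher in BXPC3, and genes of the classical subtype went both ways. Of 24 tested genes of the basal-like subtype, 22 were higher in BXPC3 and 0 in PSN1. The median log2 of the 24 was 7.64 (5.88 with the 8 members at 0 in PSN1 set to their bound). Those 8 passed the count filter through BXPC3 and could only be called higher there. TP63, the master regulator of squamous cells, stood at 238, 255, 226 and 166 CPM in the BXPC3 libraries and at 0.367, 0, 0 and 0 CPM in the PSN1 libraries (log2 10.76 ± 0.81, adjusted p = 5.66e-06). FGFBP1, which releases fibroblast growth factors from the matrix, and SCEL, a protein of the cornified envelope, were at 364 ± 67.98 and 174 ± 33.2 CPM in BXPC3 and at 0 in each PSN1 library (at least 2919-fold and at least 1397-fold higher). SPRR1B, another cornified envelope gene, was at 49.1 ± 19.4 CPM in BXPC3 and at 0 in PSN1. Classical subtype genes were divided between the lines: 9 of 17 were higher in BXPC3 and 7 in PSN1. CEACAM5 and CEACAM6, the carcinoembryonic antigen genes, were among the former with 769.9 ± 68.1 CPM in BXPC3 and 0.386 ± 0.0316 CPM in PSN1 for CEACAM5 (log2 10.86 ± 0.26, adjusted p = 3.80e-08) and 767 ± 131 CPM in BXPC3 and 0.199 ± 0.153 CPM in PSN1 for CEACAM6 (log2 11.66 ± 0.55, adjusted p = 5.34e-07). VSIG2 was at 57.02 ± 15.9 CPM in BXPC3 and at 0 in PSN1, and CTSE and ST6GALNAC1 were also higher in BXPC3.

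The trefoil factors, small peptides secreted with gastric mucus, were higher in PSN1. TFF2 stood at 4.91, 5.05, 3.22 and 7.51 CPM in the BXPC3 libraries and at 72.4, 51.8, 83.3 and 66.8 CPM in the PSN1 libraries (log2 -3.83 ± 0.30, adjusted p = 7.48e-06), with log2 of -3.53 for TFF1 (adjusted p = 6.82e-05) and -6.35 for TFF3 (adjusted p = 6.65e-06). MUC5AC, the main secreted mucin of gastric foveolar cells, stood at 0.227, 0.0265, 0.135 and 0.567 CPM in the BXPC3 libraries and at 1108, 1074, 1259 and 1105 CPM in the PSN1 libraries; the groups did not overlap (log2 -12.30 ± 0.67, adjusted p = 9.51e-07). MUC6, the mucin of gastric glands, was at 0.0407 ± 0.06503 CPM in BXPC3 and 100.2 ± 30.1 CPM in PSN1 (log2 -11.12 ± 0.71, adjusted p = 2.11e-06). Over the whole list of mucins and surface antigens, 15 of 20 were higher in BXPC3 and 5 in PSN1; the 5 were MUC5AC, MUC5B, MUC6, MUC12 and MUC13, while MUC1, MUC4, MUC16 and MUC20 were higher in BXPC3. GPC3, a surface proteoglycan, was at 36.1 ± 3.002 CPM in BXPC3 and at 0 in PSN1. Of 19 tested glycosyltransferases of Lewis antigens, 11 were higher in BXPC3 and 3 in PSN1, led by B3GNT3, which extends core O-glycans (104 ± 6.82 CPM in BXPC3 and 1.83 ± 0.978 CPM in PSN1, log2 5.72 ± 0.42, adjusted p = 4.96e-06).

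Lineage transcription factors followed no single direction. Of 16 tested factors of pancreas and endoderm, 8 were higher in BXPC3 and 5 in PSN1; the former count was 3 when genes had to average at least 5 CPM. The pluripotency and squamous factor SOX2 was at 5.89 ± 1.07 CPM in BXPC3 and 0.00706 ± 0.0141 CPM in PSN1 (log2 8.74 ± 0.75, adjusted p = 1.19e-05). FOXA1, a pioneer factor of endoderm, was at 48.2 ± 1.86 CPM in BXPC3 and 2.54 ± 1.695 CPM in PSN1 (log2 4.14 ± 0.78, adjusted p = 0.00137), and PSN1 replicate 3 had 0 counts of it. HNF4A, which drives gastrointestinal and hepatic genes, was at 0.227, 0.212, 0.108 and 0.08102 CPM in the BXPC3 libraries and at 5.05, 3.99, 5.11 and 4.73 CPM in the PSN1 libraries (log2 -4.96 ± 0.53, adjusted p = 4.42e-05). SOX9, a ductal progenitor factor, was at 21.7 ± 2.43 CPM in BXPC3 and 84.1 ± 15.4 CPM in PSN1 (log2 -2.04 ± 0.20, adjusted p = 2.87e-05). GATA6, a factor of the classical subtype, was at 61.1, 57.6, 57.9 and 70.1 CPM in the BXPC3 libraries and at 39.5, 40.8, 40.2 and 31.2 CPM in the PSN1 libraries. Its groups did not overlap, but the call (log2 0.61 ± 0.18, adjusted p = 0.0147) had adjusted p of 0.158 with edgeR when genes had to average at least 5 CPM.

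Mesenchymal genes did not move as a block. Of 32 tested, 15 were higher in PSN1 and 11 in BXPC3 (median log2 -0.85). Of the repressors of epithelial genes in this list, ZEB1 and ZEB2 were higher in PSN1 and SNAI2 was higher in BXPC3. ZEB1 stood at 0.114, 0.106, 0.515 and 0.05401 CPM in the BXPC3 libraries and at 14.1, 17.8, 4.94 and 16.4 CPM in the PSN1 libraries (log2 -6.15 ± 0.78, adjusted p = 1.26e-04). ZEB2 stood at 0.296, 1.11, 0.758 and 0.837 CPM in the BXPC3 libraries and at 45.95, 23.6, 10.9 and 24.3 CPM in the PSN1 libraries (log2 -5.20 ± 0.55, adjusted p = 4.31e-05). For both genes the lowest PSN1 library, replicate 3, was above every BXPC3 library. VIM, the mesenchymal intermediate filament, stood at 5.69, 6.83, 7.67 and 10.3 CPM in the BXPC3 libraries and at 2309, 797, 724 and 1178 CPM in the PSN1 libraries (log2 -7.44 ± 0.47, adjusted p = 2.05e-06). PRRX1, a mesenchymal homeobox factor, was at 11.9 ± 5.99 CPM in PSN1 and at 0 in each BXPC3 library (at least 154-fold higher in PSN1). The matrix gene TNC was also at 0 in each BXPC3 library and was called higher in PSN1. FN1, fibronectin, was at 34.97 ± 10.9 CPM in BXPC3 and 829 ± 461 CPM in PSN1 (log2 -4.64 ± 0.53, adjusted p = 6.62e-05). S100A4, a calcium-binding protein of motile cells, stood at 14.9 ± 4.44 CPM in BXPC3 and 631 ± 109 CPM in PSN1 (log2 -5.50 ± 0.29, adjusted p = 8.22e-07). In the other direction, N-cadherin (CDH2) was at 7.87 ± 1.68 CPM in BXPC3 and 0.0212 ± 0.0423 CPM in PSN1 (log2 7.92 ± 0.84, adjusted p = 4.24e-05). THBS1, the matrix glycoprotein thrombospondin, stood at 653 ± 219 CPM in BXPC3 and 4.05 ± 2.71 CPM in PSN1 (log2 7.25 ± 0.59, adjusted p = 9.07e-06; log2 7.84 without PSN1 replicate 3). CDH11, SNAI2, MMP14 and AXL were, like CDH2, among the 11 mesenchymal genes higher in BXPC3, while THBS1 is outside that list.

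Matrix genes also went both ways. Of 23 tested collagens, 8 were higher in BXPC3 and 10 in PSN1. COL6A1, a chain of the microfibrillar collagen VI, stood at 39.4, 34.00, 40.6 and 48.2 CPM in the BXPC3 libraries and at 2851, 6172, 4877 and 5898 CPM in the PSN1 libraries (log2 -7.04 ± 0.36, adjusted p = 7.50e-07). Its partner chain COL6A3 was at 0.0409 ± 0.06499 CPM in BXPC3 and 35.1 ± 9.83 CPM in PSN1 (log2 -9.61 ± 0.74, adjusted p = 6.37e-06). The transmembrane collagen COL13A1 stood at 0.0198 ± 0.0397 CPM in BXPC3 and 121 ± 8.503 CPM in PSN1 (log2 -12.44 ± 0.61, adjusted p = 6.16e-07). COL5A1, a fibrillar collagen chain, was on the BXPC3 side at 36.9 ± 3.497 CPM in BXPC3 and 0.0633 ± 0.0739 CPM in PSN1 (log2 8.80 ± 0.58, adjusted p = 2.62e-06). Of 28 tested integrins and laminins, 14 were higher in BXPC3 and 10 in PSN1. The BXPC3 group held ITGA6, ITGB4, LAMA3 and LAMB3, parts of the hemidesmosome and of the laminin beneath squamous epithelium, and ITGB6, an epithelial integrin that activates TGF-beta (57.8 ± 14.8 CPM in BXPC3 and 0.2496 ± 0.308 CPM in PSN1, log2 7.60 ± 0.81, adjusted p = 4.36e-05). The PSN1 group held ITGA10, a collagen-binding integrin (0.5703 ± 0.159 CPM in BXPC3 and 329 ± 111 CPM in PSN1, log2 -9.27 ± 0.43, adjusted p = 4.79e-07), and the laminin chain LAMB2 (0.0747 ± 0.08696 CPM in BXPC3 and 219.8 ± 26.8 CPM in PSN1, log2 -11.51 ± 0.67, adjusted p = 1.37e-06).

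Of 36 tested matrix proteases and inhibitors, 20 were higher in BXPC3 and 13 in PSN1. TMPRSS4, a membrane serine protease, was at 397 ± 25.3 CPM in BXPC3 and 0.0175 ± 0.0351 CPM in PSN1. KLK11, a kallikrein, and ADAMTS1, which cleaves proteoglycans, were at 47.8 ± 7.78 and 45.3 ± 4.94 CPM in BXPC3 and at 0 in each PSN1 library. ADAMTS9 and ADAMTS10 showed the reverse, at 57.6 ± 4.63 and 233 ± 84.8 CPM in PSN1 against 0.00569 ± 0.0114 and 0 CPM in BXPC3. TIMP1, the secreted inhibitor of metalloproteases, stood at 357, 346, 362 and 678 CPM in the BXPC3 libraries and at 17862, 18818, 26432 and 19221 CPM in the PSN1 libraries (log2 -5.67 ± 0.36, adjusted p = 2.01e-06). The groups did not overlap, and BXPC3 replicate 4 was the highest of its group.

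Several further genes were on in 1 line and at or near 0 in the other. On the BXPC3 side, LDHB (ENSG00000111716, chromosome 12, 21635342 to 21757857, minus strand), the lactate dehydrogenase subunit that favours lactate oxidation, stood at 518, 505, 481 and 666 CPM in the BXPC3 libraries and at 0 in each PSN1 library, at least 4347-fold higher in BXPC3; in MIAPACA2 vehicle its mean was 0.00539 CPM. The partner subunit LDHA stood at 371, 381, 372 and 426 CPM in the BXPC3 libraries and at 801, 265, 238 and 269 CPM in the PSN1 libraries and was not called (adjusted p = 0.839). That value rests on PSN1 replicate 1, without which LDHA was higher in BXPC3 (log2 0.52, edgeR adjusted p = 0.00657). The actin-bundling protein LCP1 was at 539 ± 75.6 CPM in BXPC3 and 0 in PSN1, and HCLS1, another actin regulator best known from blood cells, at 265 ± 28.5 and 0.00706 ± 0.0141 CPM. EFEMP1, an extracellular glycoprotein, was at 299 ± 22.6 CPM in BXPC3 and 0 in PSN1. F3, the tissue factor that starts coagulation, was at 2789 ± 125 CPM in BXPC3 and 96.4 ± 21.4 CPM in PSN1 (log2 4.76 ± 0.25, adjusted p = 7.98e-07). AQP3, a water and glycerol channel, stood at 2015 ± 171 CPM in BXPC3 and 58.5 ± 28.7 CPM in PSN1 (log2 5.03 ± 0.34, adjusted p = 3.25e-06). Of 25 tested S100 proteins and annexins, which are calcium-binding proteins, 10 were higher in BXPC3 and 5 in PSN1 (8 in PSN1 without PSN1 replicate 3 and BXPC3 replicate 4). Among them ANXA2, a membrane-binding annexin, stood at 2765 ± 578 CPM in BXPC3 and 549 ± 525 CPM in PSN1 (log2 2.27 ± 0.53, adjusted p = 0.00461). PSN1 replicate 1 was the highest PSN1 library for ANXA2, at 1329 CPM against 215 to 383 CPM in the other 3, and without it the log2 was 3.19 (edgeR adjusted p = 2.53e-05).

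On the PSN1 side, PSAP (ENSG00000197746, chromosome 10, 71816298 to 71851375, minus strand), the precursor of the saposins that lysosomal sphingolipid breakdown needs, stood at 427, 199, 183 and 159.8 CPM in the PSN1 libraries and at 0 in each BXPC3 library, at least 3128-fold higher in PSN1; its mean in MIAPACA2 vehicle was 745 CPM. Genes beside PSAP on chromosome 10, chosen after their values were seen, were also low in BXPC3: VSIR was at 0 in BXPC3 and 4.09 ± 1.05 CPM in PSN1, CHST3 at 0.276 ± 0.292 CPM in BXPC3 and 5.62 ± 2.19 CPM in PSN1, and ANAPC16 at 0.199 ± 0.0454 CPM in BXPC3 and 39.1 ± 16.1 CPM in PSN1. IGFN1, a muscle-type immunoglobulin domain protein, was at 624 ± 204 CPM in PSN1 and 0 in BXPC3 (at least 8058-fold higher), MAGEB17 at 196 ± 98.01 and 0 CPM, and CACNG6, a calcium channel subunit, at 162 ± 30.9 and 0.00569 ± 0.0114 CPM. NTS, the peptide neurotensin, stood at 0.318, 0.635, 0.244 and 0.729 CPM in the BXPC3 libraries and at 953, 508, 498 and 608 CPM in the PSN1 libraries (log2 -10.46 ± 0.48, adjusted p = 4.69e-07). IGFBP3, which binds insulin-like growth factors, was at 0.2998 ± 0.114 CPM in BXPC3 and 363 ± 37.1 CPM in PSN1 (log2 -10.31 ± 0.36, adjusted p = 1.61e-07). IGF2 stood at 0.823 ± 0.456 CPM in BXPC3 and 507 ± 109.9 CPM in PSN1 (log2 -9.36 ± 0.60, adjusted p = 2.14e-06). PAPPA, the protease that cleaves such binding proteins, stood at 92.00 ± 32.6 CPM in PSN1 and 0.0171 ± 0.0341 in BXPC3. GRPR, the receptor of gastrin-releasing peptide, was at 91.1 ± 20.3 and 0.00569 ± 0.0114 CPM, and ANPEP, an aminopeptidase of brush borders, at 0.177 ± 0.0586 CPM in BXPC3 and 163 ± 20.5 CPM in PSN1 (log2 -9.93 ± 0.34, adjusted p = 1.58e-07). GFPT2, an enzyme of hexosamine synthesis, was at 2.01 ± 0.361 CPM in BXPC3 and 887 ± 46.3 CPM in PSN1 (log2 -8.88 ± 0.26, adjusted p = 8.54e-08).

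Several genes altered in pancreatic cancer were examined next. MYC stood at 197, 175, 169 and 186 CPM in the BXPC3 libraries and at 351, 399, 278 and 395 CPM in the PSN1 libraries; the groups did not overlap (log2 -1.06 ± 0.18, adjusted p = 8.32e-04). EGFR, a receptor of the epidermal growth factor family, was at 575, 596, 521 and 297 CPM in the BXPC3 libraries and at 172, 106, 74.7 and 102 CPM in the PSN1 libraries (log2 2.05 ± 0.31, adjusted p = 3.62e-04). BRAF, a kinase of the MAPK pathway, was at 44.9 ± 8.83 CPM in BXPC3 and 26.7 ± 1.61 CPM in PSN1 (log2 0.66 ± 0.21, adjusted p = 0.0202). EdgeR lost this call without BXPC3 replicate 1 (adjusted p = 0.057), BXPC3 replicate 3 (adjusted p = 0.0525) or PSN1 replicate 4 (adjusted p = 0.0516). The call was also lost with edgeR at a minimum mean of 5 CPM (adjusted p = 0.133) and with limma voom and quality weights (adjusted p = 0.0786). SMAD4, the shared signal transducer of TGF-beta, and CDKN2A, which encodes p16, were too low to test. SMAD4 had 0 counts in each of the 8 libraries, against 39.3 CPM in MIAPACA2 vehicle, and CDKN2A had 0 counts in BXPC3 and 0.186 ± 0.302 CPM in PSN1.

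Feedback genes of the MAPK pathway were mostly higher in PSN1. Of 28 tested, 15 were higher in PSN1 and 7 in BXPC3 (median log2 -0.89), and in the treated libraries 14 and 7. SPRY4, an inhibitor that ERK signalling induces, stood at 16.6, 15.5, 15.01 and 13.9 CPM in the BXPC3 libraries and at 435, 540.0, 409 and 510.1 CPM in the PSN1 libraries (log2 -5.05 ± 0.21, adjusted p = 3.16e-07). The ERK phosphatase DUSP6 stood at 134, 132, 140.2 and 144 CPM in the BXPC3 libraries and at 1404, 1222, 744 and 1107 CPM in the PSN1 libraries (log2 -3.11 ± 0.23, adjusted p = 4.58e-06). ETV1, an ETS factor that ERK stabilises, stood at 1.09 ± 0.486 CPM in BXPC3 and 34.9 ± 8.51 CPM in PSN1 (log2 -5.09 ± 0.42, adjusted p = 9.90e-06). The cytokine IL11 stood at 0.8702 ± 0.337 CPM in BXPC3 and 36.9 ± 8.16 CPM in PSN1 (log2 -5.49 ± 0.39, adjusted p = 4.06e-06). EMP1, a membrane protein, was an exception at 610.4 ± 114 CPM in BXPC3 and 20.4 ± 16.02 CPM in PSN1 (log2 4.83 ± 0.67, adjusted p = 2.33e-04; log2 5.44 without PSN1 replicate 1). DUSP7, FOS, EPHA2, CCND1, MAFF and HMGA2 were the other members higher in BXPC3. Of 42 tested growth factor receptors and ligands, 19 were higher in BXPC3 and 9 in PSN1. The BXPC3 group held EGFR, ERBB2, ERBB3, MET, FGFR2, FGFR3 and the EGF-family ligands TGFA, AREG, BTC, HBEGF and NRG1. The PSN1 group held INSR, FGFR1, PDGFRA, PDGFRB and KDR with the ligands HGF, IGF2, FGF2 and LIF. PDGFRB was at 0.0249 ± 0.02899 CPM in BXPC3 and 12.7 ± 3.24 CPM in PSN1 (log2 -8.85 ± 0.72, adjusted p = 9.29e-06). FGF2 stood at 0.0265 ± 0.0529 CPM in BXPC3 and 13.8 ± 5.61 CPM in PSN1 (log2 -8.94 ± 0.95, adjusted p = 4.48e-05). KDR, a receptor of vascular endothelial growth factor, was at 16.2 ± 8.395 CPM in PSN1 and 0 in BXPC3.

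Genes around 3 of these loci were compared by position, over all tested genes that start within 3 Mb. Around MYC, 13 of 25 were higher in PSN1 and 8 in BXPC3 (median log2 -1.59), and the direction differed by gene class. Of the 11 protein-coding genes, 7 were higher in BXPC3 and 3 in PSN1 (median log2 0.98, against 0.35 for all protein-coding genes), the latter with MYC itself. Of the other 14 genes, 10 were higher in PSN1 and 1 in BXPC3 (median log2 -3.88, against -1.45 for all long non-coding genes). PVT1 stood at 14.2, 14.3, 13.7 and 17.96 CPM in the BXPC3 libraries and at 169, 202, 233 and 205 CPM in the PSN1 libraries (log2 -3.85 ± 0.21, adjusted p = 8.89e-07). CASC11 stood at 0.0719 ± 0.0815 CPM in BXPC3 and 70.1 ± 22.3 CPM in PSN1 (log2 -9.97 ± 0.65, adjusted p = 2.35e-06). CASC8 stood at 0.546 ± 0.189 CPM in BXPC3 and 39.03 ± 9.94 CPM in PSN1 (log2 -6.25 ± 0.36, adjusted p = 1.28e-06). The strand setting of the count is not given in the sources used here, so reads of overlapping antisense partners cannot be told apart.

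Around SMAD4, 6 of 18 tested genes were higher in each line (median log2 -0.37). Of its 16 protein-coding genes, 6 were higher in BXPC3 and 4 in PSN1. Over all protein-coding genes the shares were 36.2% and 24.9%, and over all genes 30.2% and 28.9%, so the counts around SMAD4 lie near the background. ELAC1, next to SMAD4, had 0 counts in all 8 libraries. MEX3C, on the other side, was at 23.7 ± 15.6 CPM in PSN1 and 0 in BXPC3, and ME2, a mitochondrial malic enzyme, at 0.455 ± 0.237 CPM in BXPC3 and 16.9 ± 8.44 CPM in PSN1 (log2 -5.30 ± 0.59, adjusted p = 5.94e-05). Around CDKN2A, 10 of 17 were higher in PSN1 and 3 in BXPC3 (median log2 -1.88). Of the 17, 5 were at 0 in BXPC3 and 0 were at 0 in PSN1. Those 5 passed the count filter through PSN1 and could only be called higher there. Of its 13 protein-coding genes, 7 were higher in PSN1 and 2 in BXPC3 (median log2 -1.34). CDKN2B, which encodes the inhibitor p15 and lies beside CDKN2A, stood at 200.3, 194, 113 and 166 CPM in the PSN1 libraries and at 0 in each BXPC3 library, at least 2170.3-fold higher in PSN1. IFNE, an interferon, MIR31HG, the host of a microRNA, and KLHL9, a ubiquitin ligase adaptor, were at 21.7 ± 11.3, 17.4 ± 7.59 and 11.3 ± 4.604 CPM in PSN1 and at 0 in each BXPC3 library. MTAP stood at 0.296, 0.132, 0.244 and 0.432 CPM in the BXPC3 libraries and at 1.38, 1.25, 5.502 and 2.56 CPM in the PSN1 libraries (log2 -3.37 ± 0.71, adjusted p = 0.00249). It was thus low in both lines but higher in PSN1, and in the treated libraries it did not pass (log2 -0.92, adjusted p = 0.117). DNA copy number was not measured here.

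**Figure D3:**
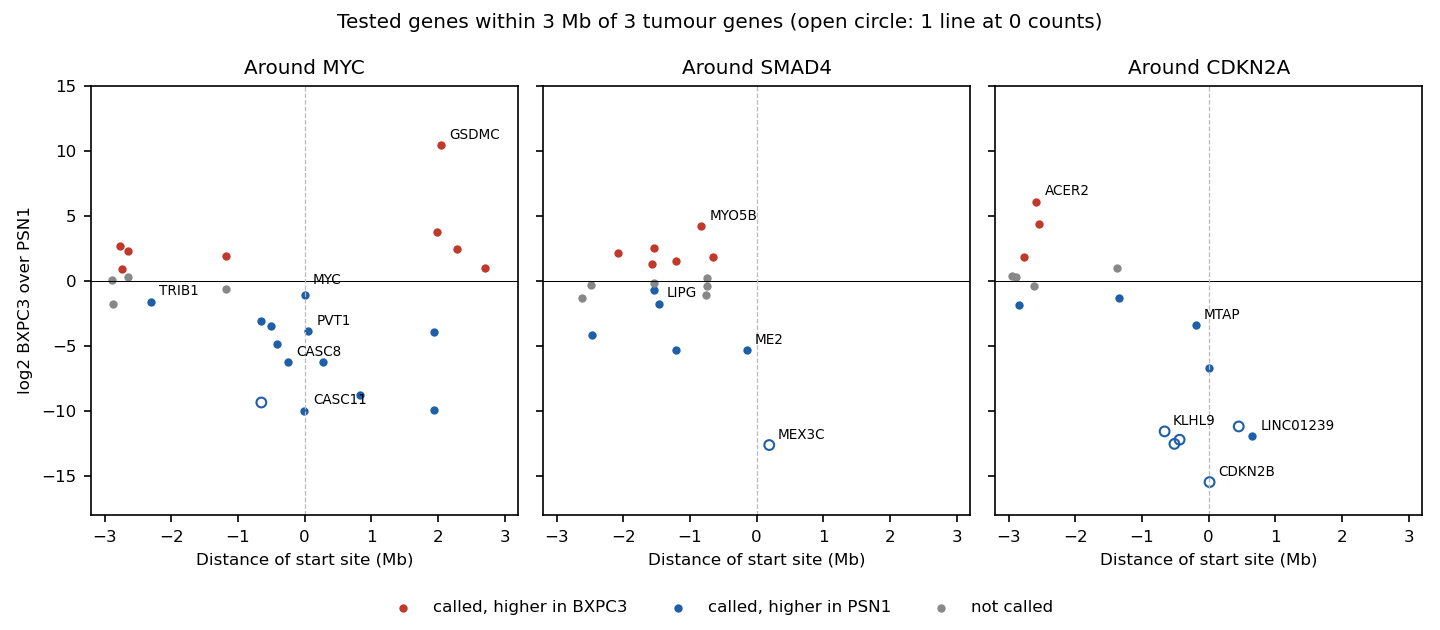
Fitted log2 difference of BXPC3 over PSN1 (y axis) of tested genes by distance of their start from that of MYC, SMAD4 or CDKN2A (x axis, Mb, 3 Mb either way), with red and blue points called and grey points not. Open circles have 0 counts in 1 line, so their height depends on the fit and is no bound; 5 of them lie around CDKN2A, all at 0 in BXPC3.

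Pathways upstream of the cell cycle differed gene by gene. Of 43 tested TGF-beta and BMP genes, 15 (34.9%) were higher in BXPC3 and 14 (32.6%) in PSN1, near the 30.2% and 28.9% of all genes. The members given next had the largest log2 differences among those called above 5 CPM, and all are on the BXPC3 side. FST, follistatin, which traps activins, was at 811 ± 139 CPM in BXPC3 and 1.89 ± 1.64 CPM in PSN1 (log2 8.63 ± 0.89, adjusted p = 3.64e-05; log2 9.22 without PSN1 replicate 1). The co-receptor TGFBR3 stood at 24.7 ± 7.36 CPM in BXPC3 and 0.183 ± 0.313 CPM in PSN1 (log2 7.02 ± 0.98, adjusted p = 2.26e-04). The BMP receptor BMPR1B stood at 7.43 ± 0.9698 CPM in BXPC3 and 0.0282 ± 0.0565 CPM in PSN1 (log2 7.49 ± 0.87, adjusted p = 7.52e-05). The BMP target ID3 stood at 6.801 ± 1.898 CPM in BXPC3 and 0.0351 ± 0.0701 CPM in PSN1 (log2 7.25 ± 0.96, adjusted p = 1.73e-04). Of 33 tested WNT genes, 16 were higher in BXPC3 and 6 in PSN1 (3 in PSN1 without scaling and 10 in a fit over all 6 groups). The ligand WNT7A was at 52.96 ± 3.95 CPM in BXPC3 and 0 in PSN1. The ligand WNT10A stood at 132 ± 39.3 CPM in BXPC3 and 0.102 ± 0.168 CPM in PSN1 (log2 10.04 ± 0.73, adjusted p = 4.49e-06). RNF43, which removes WNT receptors from the surface, stood at 24.9 ± 2.04 CPM in BXPC3 and 0.0141 ± 0.0282 CPM in PSN1 (log2 10.03 ± 0.60, adjusted p = 1.59e-06). Of 25 tested YAP and TEAD targets, 16 were higher in BXPC3 and 3 in PSN1 (median log2 2.38). MYOF, a membrane repair protein, was at 1260.4 ± 290.2 CPM in BXPC3 and 33.8 ± 15.4 CPM in PSN1 (log2 5.14 ± 0.46, adjusted p = 1.62e-05). AMOTL2, a YAP regulator, stood at 331 ± 44.8 CPM in BXPC3 and 8.87 ± 2.03 CPM in PSN1 (log2 5.13 ± 0.25, adjusted p = 6.19e-07). PSN1 replicate 3 had the lowest MYOF value of its group, and IGFBP3, named above, was 1 of the 3 on the PSN1 side.

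Regulators of the G1 phase were more often higher in BXPC3. Of 21 tested G1 regulators, 15 were higher in BXPC3 and 2 in PSN1. The 15 include cyclins and kinases (CCND1, CCND2, CCND3, CDK2, CDK4, CDK6) and inhibitors (CDKN1A, CDKN1B, CDKN2C). CDKN1A, which encodes the inhibitor p21, stood at 119, 112, 109.8 and 118 CPM in the BXPC3 libraries and at 17.1, 10.4, 6.01 and 8.17 CPM in the PSN1 libraries (log2 3.38 ± 0.31, adjusted p = 1.62e-05). CDKN2C, which encodes p18, was at 11.1 ± 2.38 CPM in BXPC3 and 0.0947 ± 0.171 CPM in PSN1 (log2 6.60 ± 0.95, adjusted p = 2.79e-04), and the 2 in PSN1 were CDKN1C and CDKN2B.

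Cell division genes were almost all higher in BXPC3. Of 48 tested mitosis and kinetochore genes, 46 were higher in BXPC3 and 0 in PSN1 (median log2 2.41), and the summed CPM of the list was 4512 to 4862 in BXPC3 and 954 to 1306 in PSN1. DLGAP5, a spindle protein, was at 101 ± 18.97 CPM in BXPC3 and 3.65 ± 2.71 CPM in PSN1 (log2 4.70 ± 0.73, adjusted p = 4.65e-04). TOP2A, the topoisomerase of dividing cells, stood at 405, 434, 401 and 218 CPM in the BXPC3 libraries and at 42.6, 30.8, 15.4 and 27.7 CPM in the PSN1 libraries (log2 3.57 ± 0.35, adjusted p = 2.73e-05). CCNA2, cyclin A, stood at 66.8, 64.4, 64.3 and 43.6 CPM in the BXPC3 libraries and at 4.63, 4.36, 3.74 and 1.54 CPM in the PSN1 libraries (log2 3.98 ± 0.36, adjusted p = 1.78e-05). PRC1, which bundles the central spindle, was at 204 ± 22.1 CPM in BXPC3 and 17.1 ± 7.34 CPM in PSN1 (log2 3.50 ± 0.29, adjusted p = 1.07e-05). BXPC3 replicate 4 had the lowest value of its group for both TOP2A and CCNA2 and was still above every PSN1 library. Of 45 tested DNA replication genes, 38 were higher in BXPC3 and 0 in PSN1 (median log2 1.86), with 1 in PSN1 when PSN1 replicate 3 was left out. TK1, thymidine kinase, was at 66.7 ± 16.4 CPM in BXPC3 and 4.87 ± 1.68 CPM in PSN1 (log2 3.68 ± 0.31, adjusted p = 1.16e-05). TYMS, thymidylate synthase, stood at 67.3 ± 2.92 CPM in BXPC3 and 6.73 ± 3.46 CPM in PSN1 (log2 3.24 ± 0.32, adjusted p = 2.70e-05). GINS2, a helicase subunit, stood at 16.3 ± 4.05 CPM in BXPC3 and 1.39 ± 1.06 CPM in PSN1 (log2 3.46 ± 0.56, adjusted p = 5.66e-04; log2 4.08 without PSN1 replicate 1).

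In the treated libraries 36 of 48 mitosis genes were higher in BXPC3 and 3 in PSN1 (median log2 0.85), and 16 of 45 replication genes against 5 (median log2 0.35). PSN1 vehicle libraries differed from those of BXPC3 both in the division genes and in the mitochondrial share. Within PSN1 vehicle the share ran from 17.4 to 43.8% and the mitosis sum from 954 to 1306 CPM. In treated PSN1 the share ran from 7.98 to 31.1% and the sum from 2834 to 3506 CPM. Over the alternatives, which include removal of mitochondrial genes, 43 to 46 mitosis genes were higher in BXPC3 and 0 in PSN1. For replication genes the counts were 33 to 41 against 0 to 1. The part of the mitochondrial share in the difference of division genes was not tested beyond that removal. With PSN1 replicate 3 and BXPC3 replicate 4 left out, an alternative chosen after seeing the data, 46 mitosis genes were higher in BXPC3 and 0 in PSN1, and 39 replication genes against 1. All 15 genes of the mitochondrial genome tested were higher in PSN1 (median log2 -2.47), from -4.16 for MT-ND1 (adjusted p = 3.38e-05). MT-CO1, a subunit of cytochrome oxidase, stood at 14679.9, 14041, 14148 and 20995 CPM in the BXPC3 libraries and at 50214, 153350, 122266 and 106969 CPM in the PSN1 libraries (log2 -2.87 ± 0.40, adjusted p = 2.22e-04).

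**Figure D4:**
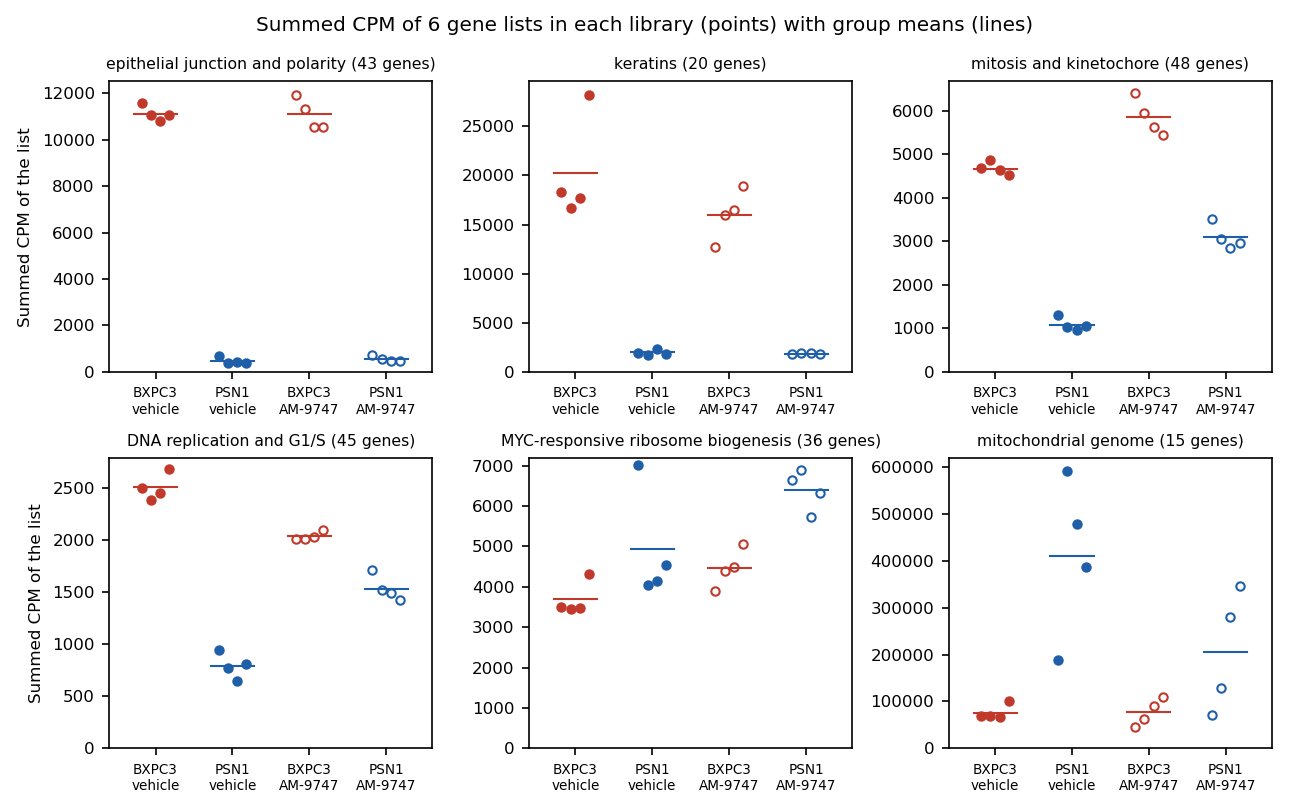
Summed CPM (y axis, linear, from 0) of 6 gene lists in each library of the 2 lines with vehicle (filled points) or AM-9747 (open points); lines are group means of 4 libraries. Mitosis and replication sums are lowest in PSN1 vehicle, and mitochondrial genome sums are highest and most spread there (188670 to 592060 CPM).

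Ribosome biogenesis genes were more often higher in PSN1. Of 12 tested members of the MYC, MAX and MXD network, 2 were higher in BXPC3 and 4 in PSN1. The BXPC3 count was 4 without BXPC3 replicate 4, and 5 without scaling beyond library totals or in the fit over all 6 groups. MLXIPL, a glucose-responsive factor, was at 2.24 ± 0.381 CPM in BXPC3 and 123 ± 44.3 CPM in PSN1 (log2 -5.89 ± 0.37, adjusted p = 2.08e-06). MYCL, a MYC relative, stood at 17.6 ± 2.11 CPM in BXPC3 and 0.844 ± 0.676 CPM in PSN1 (log2 4.27 ± 0.79, adjusted p = 0.00127). Of 36 tested ribosome biogenesis genes that respond to MYC, 15 were higher in PSN1 and 2 in BXPC3 (median log2 -0.45), and in the treated libraries 22 and 1. The BXPC3 count was 6 without PSN1 replicate 1 and 1 without PSN1 replicate 4, and ran from 1 to 6 over the alternatives. LYAR, a nucleolar protein, was at 16.3 ± 3.895 CPM in BXPC3 and 85.9 ± 26.3 CPM in PSN1 (log2 -2.49 ± 0.26, adjusted p = 3.94e-05). NME1, a nucleotide kinase, stood at 49.6 ± 19.4 CPM in BXPC3 and 209 ± 28.7 CPM in PSN1 (log2 -2.17 ± 0.27, adjusted p = 1.09e-04). RRP9, which processes ribosomal RNA, stood at 21.1 ± 4.79 CPM in BXPC3 and 63.4 ± 14.99 CPM in PSN1 (log2 -1.69 ± 0.25, adjusted p = 3.18e-04). BXPC3 replicate 4 was the highest BXPC3 library for LYAR, NME1 and RRP9 and was still below every PSN1 library.

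Metabolic genes also separated the lines. Of 36 tested NRF2 and glutathione genes, 22 were higher in BXPC3 and 7 in PSN1 (median log2 1.25). GPX2, a glutathione peroxidase of gut epithelium, was at 325 ± 86.00 CPM in BXPC3 and 0.00706 ± 0.0141 in PSN1, and AKR1B10, an aldo-keto reductase that NRF2 induces, at 211 ± 18.6 CPM in BXPC3 and 1.26 ± 0.819 CPM in PSN1 (log2 7.32 ± 0.53, adjusted p = 4.40e-06). The PSN1 side held glutathione transferases such as GSTM1 (0.0519 ± 0.0585 CPM in BXPC3 and 11.1 ± 8.57 CPM in PSN1, log2 -7.72 ± 0.89, adjusted p = 7.19e-05), a gene with close paralogs. Of 26 tested aldehyde dehydrogenase and retinoid genes, 12 were higher in BXPC3 and 6 in PSN1 (2 in PSN1 without scaling beyond library totals). ALDH3A1, a detoxifying dehydrogenase of surface epithelia, stood at 928, 841, 941 and 1387 CPM in the BXPC3 libraries and at 4.06, 8.07, 2.04 and 1.96 CPM in the PSN1 libraries (log2 7.89 ± 0.56, adjusted p = 4.00e-06; log2 8.51 without PSN1 replicate 2). ALDH1A3, which makes retinoic acid, stood at 1563 ± 244 CPM in BXPC3 and 39.8 ± 27.8 CPM in PSN1 (log2 5.22 ± 0.69, adjusted p = 1.71e-04). Of 35 tested genes of cholesterol and fatty acid synthesis, 19 were higher in BXPC3 and 1, the sterol exporter ABCG1 (2 genes without BXPC3 replicate 4 or PSN1 replicate 3), was higher in PSN1 (3.46 ± 0.423 CPM in BXPC3 and 24.98 ± 9.49 CPM in PSN1, log2 -2.94 ± 0.34, adjusted p = 7.19e-05). SCD, the fatty acid desaturase, was at 2479 ± 419.7 CPM in BXPC3 and 419 ± 113 CPM in PSN1 (log2 2.48 ± 0.25, adjusted p = 3.17e-05). INSIG1, a sterol feedback protein, stood at 118 ± 11.1 CPM in BXPC3 and 17.8 ± 9.94 CPM in PSN1 (log2 2.64 ± 0.33, adjusted p = 1.11e-04).

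Of 36 tested glycolysis and hypoxia genes, 16 were higher in BXPC3 and 10 in PSN1. The BXPC3 group held the glucose transporter SLC2A1 and the enzymes TPI1, PGK1, PGAM1 and ENO1. The PSN1 group held another glucose transporter, SLC2A3, with CA9, a carbonic anhydrase (0.435 ± 0.103 CPM in BXPC3 and 39.2 ± 8.18 CPM in PSN1, log2 -6.58 ± 0.33, adjusted p = 6.19e-07), and PFKFB4, a glycolytic regulator (2.61 ± 0.215 CPM in BXPC3 and 254 ± 94.1 CPM in PSN1, log2 -6.70 ± 0.37, adjusted p = 9.53e-07). Of 33 tested genes of the integrated stress response and serine synthesis, 13 were higher in PSN1 and 6 in BXPC3, while in the treated libraries 6 and 17 were. Without PSN1 replicate 1 the vehicle count for BXPC3 was 10. CBS, which makes cystathionine, was at 1.49 ± 0.28 CPM in BXPC3 and 129 ± 35.3 CPM in PSN1 (log2 -6.52 ± 0.31, adjusted p = 5.34e-07). ALDH1L2, a mitochondrial folate enzyme, stood at 3.93 ± 1.23 CPM in BXPC3 and 67.4 ± 32.6 CPM in PSN1 (log2 -4.17 ± 0.39, adjusted p = 2.03e-05). ATF3, a stress factor, was on the BXPC3 side at 24.96 ± 3.72 CPM in BXPC3 and 3.57 ± 0.8298 CPM in PSN1 (log2 2.71 ± 0.27, adjusted p = 2.68e-05).

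Interferon response genes were more often higher in BXPC3. Of 44 tested interferon response genes, 27 were higher in BXPC3 and 4 in PSN1 (median log2 1.47). OAS2, an antiviral synthetase, was at 47.5 ± 6.195 CPM in BXPC3 and 1.12 ± 1.14 CPM in PSN1 (log2 5.26 ± 0.82, adjusted p = 4.64e-04; log2 5.96 without PSN1 replicate 4). HERC5, a ligase that attaches ISG15, stood at 8.82 ± 0.837 CPM in BXPC3 and 0.213 ± 0.259 CPM in PSN1 (log2 5.23 ± 1.00, adjusted p = 0.00153). Of 23 tested antigen presentation genes, 12 were higher in BXPC3 and 1, the HLA class I activator NLRC5, was higher in PSN1 (7.87 ± 1.4 CPM in BXPC3 and 53.1 ± 12.9 CPM in PSN1, log2 -2.85 ± 0.27, adjusted p = 2.26e-05). ERAP2, which trims peptides, was at 238 ± 27.5 CPM in BXPC3 and 26.9 ± 9.59 CPM in PSN1 (log2 3.04 ± 0.32, adjusted p = 4.13e-05). CD274, the checkpoint ligand PD-L1, stood at 7.96 ± 0.629 CPM in BXPC3 and 0.736 ± 0.665 CPM in PSN1 (log2 3.33 ± 0.82, adjusted p = 0.00599). Chemokines and interleukins went both ways, with 17 of 45 higher in BXPC3 and 18 in PSN1. The PSN1 group held CXCL1, CXCL2, CXCL3, CXCL8, IL1B, IL6 and CSF2, which NF-kB induces and which attract or expand myeloid cells. In it, CXCL6, a neutrophil attractant, was at 0.0715 ± 0.0601 CPM in BXPC3 and 57.8 ± 24.02 CPM in PSN1 (log2 -9.67 ± 0.61, adjusted p = 2.03e-06). CCL2, a monocyte attractant, stood at 0.168 ± 0.279 CPM in BXPC3 and 31.9 ± 7.496 CPM in PSN1 (log2 -7.62 ± 0.99, adjusted p = 1.56e-04). CCL26, an eosinophil attractant, stood at 0.272 ± 0.0762 CPM in BXPC3 and 72.3 ± 20.1 CPM in PSN1 (log2 -8.11 ± 0.35, adjusted p = 3.69e-07). TNFSF15 stood at 0.0246 ± 0.0286 CPM in BXPC3 and 85.8 ± 28.1 CPM in PSN1 (log2 -11.59 ± 0.59, adjusted p = 7.07e-07). CXCL10, CXCL11, IL1RN, TNF and TNFSF10 were in the BXPC3 group.

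HOX genes, which pattern the body axis, were more often higher in PSN1. Of 26 tested HOX genes, 16 were higher in PSN1 and 6 in BXPC3 (median log2 -2.38). HOXB2 was at 1.09 ± 0.516 CPM in BXPC3 and 75.4 ± 11.7 CPM in PSN1 (log2 -6.21 ± 0.39, adjusted p = 1.97e-06). HOXA11 stood at 0.0135 ± 0.0271 CPM in BXPC3 and 8.68 ± 4.16 CPM in PSN1 (log2 -9.10 ± 0.97, adjusted p = 4.36e-05). The 6 in BXPC3 were HOXA10, HOXA13, HOXB13, HOXC10, HOXC11 and HOXC13. The 14 cancer-testis antigens that could be tested were higher in BXPC3 (median log2 8.56, 5.06 with the 10 members at 0 in PSN1 set to their bound), and these passed the count filter through BXPC3, where they were high. A member was higher in PSN1 (1 gene) when PSN1 replicate 1 or any 1 BXPC3 library was left out, with no filter and in a fit over all 6 groups. MAGEB17, a MAGE gene outside the list that is named above, was higher in PSN1. MAGEA3 was at 136 ± 5.83 CPM in BXPC3 and MAGEA1 at 34.7 ± 1.84, each at 0 in every PSN1 library; reads of MAGEA3 may be shared with close copies. The other 26 of the 40 list genes were too low to test.

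**Figure D5:**
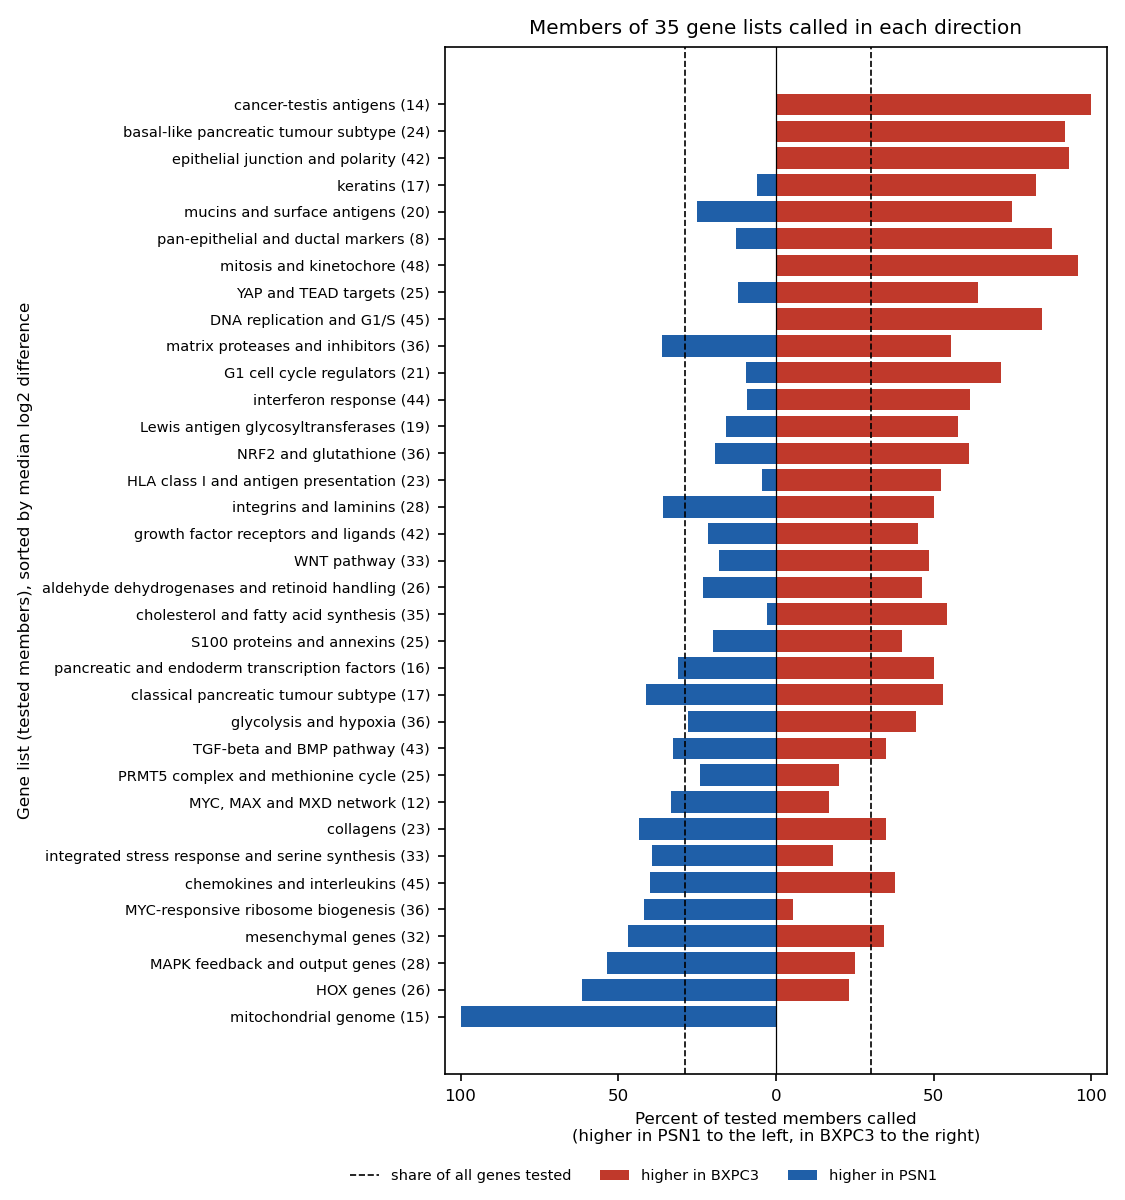
Percent of tested members (x axis) of 35 gene lists (y axis, tested members in brackets) called higher in BXPC3 (red, right) or PSN1 (blue, left), sorted by median log2 difference. Dashed lines are the shares of all tested genes, 30.2% and 28.9%; basal-like, junction, mitosis and replication lists lie far beyond the right line, and the mitochondrial genome and HOX lists beyond the left one.

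PRMT5, the target of the drug in the series, was itself higher in BXPC3 without drug. It stood at 116, 109.9, 112 and 99.7 CPM in the BXPC3 libraries and at 58.5, 33.9, 51.4 and 50.9 CPM in the PSN1 libraries (log2 1.08 ± 0.20, adjusted p = 0.00126), while in the treated libraries the difference did not pass (log2 0.47, adjusted p = 0.0638). Of 25 tested genes of the PRMT5 complex and the methionine cycle, 5 were higher in BXPC3 and 6 in PSN1, shares of 20% and 24% that lie under the background of all genes. The count for BXPC3 was 10 without PSN1 replicate 1 and 3 without PSN1 replicate 2, PSN1 replicate 4 or any 1 BXPC3 library. Without scaling beyond library totals 9 were higher in BXPC3 and 3 in PSN1, so the balance turned with the scaling, and in the fit over all 6 groups 8 were higher in BXPC3. CLNS1A, the PRMT5 adaptor pICln, was at 152 ± 12.6 CPM in BXPC3 and 44.1 ± 36.7 CPM in PSN1 (log2 1.72 ± 0.45, adjusted p = 0.00787), and PSN1 replicate 1 was the highest PSN1 library (log2 2.48, edgeR adjusted p = 3.13e-05 without it). SRM, spermidine synthase, stood at 33.4 ± 14.7 CPM in BXPC3 and 89.8 ± 16.6 CPM in PSN1 (log2 -1.53 ± 0.29, adjusted p = 0.00156). The PRMT5 partner WDR77 and MAT2A, which makes S-adenosylmethionine, were not called.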

How the data were processed

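Poly(A) RNA was sequenced from 24 libraries, of which the 8 vehicle libraries of BXPC3 and PSN1 are compared here. Per the labels' protocols the libraries came from a stranded kit. The submitters' processing notes name fastp 0.19.8, HISAT2 2.2.0, R 4.0.2, DESeq2 1.34.0 and the build GRCh38. Which program counted the reads, on which annotation and with which strand setting is not given in the sources used here. Raw counts per gene make up the table that the authors deposited. Of its 60366 entries, 56271 were matched to GENCODE 29 by Ensembl ID for positions and classes.

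Counts were fitted with edgeR 4.0.16 (filterByExpr, TMM scaling, quasi-likelihood test, Benjamini-Hochberg adjustment) on the 8 libraries, in R 4.3.3. The script was tested on simulated counts. The AM-9747 libraries of both lines were fitted in the same way. CPM values use TMM scaling over all 24 libraries, so the ratio of 2 means lies above the fitted log2 by a median of 0.0909. For a gene at 0 in all libraries of a line, a fold is given as a lower bound against 3 counts per library (0.0775 CPM in BXPC3 and 0.125 CPM in PSN1), which covers counting error only. Promoter windows come from RefSeq.

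Gene lists, named genes and the comparison itself were chosen with earlier results of these data known. Named genes were protein-coding genes that were, in each direction, the 10 with the highest CPM among those near 0 in the other line, the 12 with the largest log2 difference above 10 CPM, the 10 with the largest CPM difference, the key tumour genes, and in each list the 4 called members with the largest log2 difference above 5 CPM, plus defining members. The 12 and the 10 by CPM difference were taken only from genes whose groups did not overlap. A selection of all these genes is printed, and the named neighbours of the tumour genes were picked after their values were seen. Results for a few genes and 1 gene list are not reported here. Alternatives were DESeq2 1.42.0, limma 3.58.1 voom with quality weights, other scaling and filters, a fit over all 6 groups, removal of mitochondrial genes, a replicate block, and leaving out libraries.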

Additional observations from a re-analysis of the deposited data

Results flagged for a closer look

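A library was singled out where its gap to the nearest of the other 3, divided by the range of the group, was above Dixon's critical value for 4 libraries. Of 254 groups of 4 values examined, 45 (17.7%) had such a library, where chance flags about 1 in 20 independent groups. The groups here are genes and sums from the same 8 libraries and are not independent, so the share is a description without a test. BXPC3 replicate 4 gave 31 of them, PSN1 replicate 1 gave 8, PSN1 replicate 3 gave 4 and PSN1 replicates 2 and 4 gave 1 each.

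BXPC3 replicate 4 was highest for KRT8 (3583 CPM, others 2062 to 2251), KRT18 (2791 CPM, others 1496 to 1668), KRT7 (3122 CPM, others 1711 to 1773) and RAB25 (128 CPM, others 78.98 to 82.5). The highest value of the group came from it for KRT17 (8077 CPM, others 4309 to 4701), SPRR1B (77.99 CPM, others 36.1 to 41.1), VSIG2 (80.8 CPM, others 48.4 to 50.2) and TMPRSS4 (435 CPM, others 382 to 388). The same held for TIMP1 (678 CPM, others 346 to 362), ID3 (9.64 CPM, others 5.66 to 5.99), WNT10A (190.4 CPM, others 106 to 118) and LYAR (22.1 CPM, others 13.9 to 14.9). The same held for NME1 (78.6 CPM, others 37.2 to 42.2), RRP9 (28.2 CPM, others 18.5 to 18.8), PVT1 (17.96 CPM, others 13.7 to 14.3) and MT-ND1 (2092 CPM, others 1282 to 1367). The same held for MT-CO1 (20990 CPM, others 14040 to 14680), SRM (55.4 CPM, others 24.3 to 27.2), ANXA2 (3624 CPM, others 2387 to 2574) and KLK10 (163 CPM, others 99.7 to 107). The same held for SPRR1A (35.4 CPM, others 16.9 to 17.4). BXPC3 replicate 4 was lowest for DSC3 (107 CPM, others 178 to 187), SCEL (125 CPM, others 185 to 197), ITGB6 (35.6 CPM, others 64.7 to 65.6) and BRAF (31.8 CPM, others 48.05 to 50.99). The lowest value of the group came from it for CCNA2 (43.6 CPM, others 64.3 to 66.8) and TOP2A (218 CPM, others 400.5 to 434). Its summed CPM of keratins was 28240 CPM, against 16670 to 18360 in the other 3. Its summed CPM of MYC-responsive ribosome biogenesis was 4313 CPM, against 3463 to 3493 in the other 3. Its summed CPM of mitochondrial genome was 100800 CPM, against 67340 to 68710 in the other 3. Its mitochondrial share of counts was 8.98%, against 6.596 to 6.78 in the other 3.

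PSN1 replicate 1 was highest for LDHA (801 CPM, others 238 to 269), PSAP (427 CPM, others 159.8 to 199.5), MEX3C (47.02 CPM, others 14.5 to 17.8) and TYMS (11.9 CPM, others 4.404 to 5.33). The highest value of the group came from it for INSIG1 (32.7 CPM, others 12.2 to 13.3), CXCL6 (93.5 CPM, others 41.8 to 48.1), CLNS1A (98.4 CPM, others 21.5 to 34.6) and ANXA2 (1329 CPM, others 215 to 383). PSN1 replicate 2 was highest for ADAMTS9 (64.5 CPM, others 54.5 to 55.7). PSN1 replicate 3 was highest for TIMP1 (26430 CPM, others 17860 to 19220) and SRM (114 CPM, others 79.4 to 84.6). PSN1 replicate 3 was lowest for FOXA1 (0 CPM, others 3.297 to 3.48) and MYOF (10.8 CPM, others 40.02 to 44.1). PSN1 replicate 4 was lowest for GATA6 (31.2 CPM, others 39.5 to 40.8). No explanation of these values was tested.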

How the results depend on the processing

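Over the alternatives, counts of calls ran from 3752 to 7258 for BXPC3 and from 3753 to 7038 for PSN1, each within 1.5 times the values reported. Leaving out 1 library gave 4819 to 6562 and 4614 to 5755. Calls that recurred in the treated libraries with the same sign numbered 8436 with DESeq2, 8992 in a fit over all 6 groups and 7267 without scaling. Of 169 tested genes named in the text, 165 kept their direction and their side of the threshold wherever a value could be had. The exceptions were KRT18, GATA6, BRAF and LDHA. LDHA ran from -0.224 to 0.523 on the log2 scale when 1 library was left out, and the cause was not tested. Without scaling beyond library totals the log2 of a gene moved by a median of 0.292 and the share of calls higher in BXPC3 was 58.8%, against 51.1% as reported. That median move was -0.280 over the genes left by a minimum mean of 5 CPM and 0.139 with no filter, while the median log2 of all genes tested was 0.068 and 0.095, against 0.051 as reported. Leaving out 1 library changed the fitted ratio of BXPC3 to PSN1 by over 1.5-fold for 48 named genes. In 39 of them the lower line was under 1 CPM, and PSN1 replicate 1 moved 14 of these; the other 9 have their values in the report. With a minimum mean of 5 CPM fewer members are tested: counts became 9 chemokines and interleukins, 6 cancer-testis antigens and 1 HOX gene higher in BXPC3, and 8 matrix proteases, 3 NRF2 genes, 3 cholesterol genes and 10 HOX genes higher in PSN1.

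The replicate numbers showed no clear pairing of the libraries. With 4 libraries in each line, these correlations cannot settle whether libraries of the same number were handled together. Deviations of same-numbered libraries correlated at 0.201, 0.0831, -0.198 and -0.0742 for numbers 1 to 4, and libraries did not always correlate best with their own number. With a replicate block 5223 genes were higher in BXPC3 and 4286 in PSN1; GATA6 (log2 0.61, edgeR adjusted p = 0.0655) and BRAF (log2 0.64, edgeR adjusted p = 0.0634) were not called. The minimum of 5 CPM and the removal of mitochondrial genes give no value for genes they leave out. PSN1 had 22.4 to 38.4 M counts, and its spread limits calls of small differences.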

Other observations

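Runs of neighbouring genes that were on in 1 line and at or near 0 in the other were also present outside the tumour loci; they were chosen after their values were seen. On chromosome 21, PRDM15 and ZBTB21 were at 27.6 ± 6.75 and 14.6 ± 4.598 CPM in PSN1 and at 0 in each BXPC3 library, and C2CD2 between them was at 48.2 ± 12.4 CPM in PSN1 and 0.0381 ± 0.0257 CPM in BXPC3. RIPK4, a kinase of epidermal differentiation that lies beside them, was at 3.77 ± 2.35 CPM in PSN1 and also at 0 in BXPC3, the line with the squamous genes. On chromosome 4, EVC, which acts in hedgehog signalling, was at 8.15 ± 4.25 CPM in PSN1 and its neighbour CRMP1 at 4.96 ± 1.41 CPM, both at 0 in each BXPC3 library. On chromosome 9, TNFSF8 was at 7.18 ± 2.57 CPM in PSN1 and 0 in BXPC3, between TNFSF15 and TNC, which were described above.

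Other cornified envelope genes of chromosome 1 were on the BXPC3 side. SPRR1A was at 21.6 ± 9.17 CPM and CRNN, which encodes cornulin, at 9.47 ± 1.13 CPM in BXPC3, both at 0 in each PSN1 library. IVL, involucrin, was at 3.89 ± 1.11 CPM in BXPC3 and 0 in PSN1. The kallikrein KLK10, next to KLK11, was at 119 ± 29.8 CPM in BXPC3 and 0.0212 ± 0.0423 CPM in PSN1.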
